A study of Oryza sativa with 36 samples.

Results

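The 4 loci described here, LOC_Os03g22270, LOC_Os11g44810, LOC_Os08g35190 and LOC_Os09g26620, were chosen by name from 55801 rice (Oryza sativa) loci as members of the dormancy-associated and auxin-repressed protein family, DRM1/ARP. The family name came with the choice of loci. None of the identifiers matched the gene table used here (0 of 55801), so the members are called by their identifiers and no individual role is given to any of them. RNA was counted in 35 CEL-Seq2 libraries, a method that counts each transcript molecule once by a tag near its 3′ end. The libraries came from 2 cultivars, NIL-MP3 (18 libraries) and Takanari (17 libraries), with no transgene or treatment named in the labels. The labels do not describe either line, and it is general knowledge that Takanari is an indica rice with high grain yield and that NIL commonly stands for near-isogenic line. In each cultivar the tissues were labelled AM1, AM2, AM3, AM4, AM5 and SAM, so that 3 libraries made up a group, except for Takanari SAM, which had 2. All were described as axillary meristems of plants kept in short days, the SAM libraries included. The labels give no plant age or stage and do not say what the label numbers stand for.

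DRM1/ARP genes encode small plant proteins and take their names from observations in other species. In pea, DRM1 transcripts are abundant in dormant axillary buds and fall when the buds are released to grow. In strawberry, a gene of the family is repressed by auxin in the growing receptacle, and in Arabidopsis DRM1 is widely used as a transcript marker of bud dormancy. The question put to the 4 rice loci was therefore how their RNA varied with tissue label and cultivar, as a readout of arrest against growth. The labels do not say which AM tissues held arrested or growing buds, so the levels are given by label and no tissue is called dormant. In bulk tissue, fewer cells of a type and less RNA per cell cannot be told apart.

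The counts per library ran from 77362 to 224706, with a median of 143050, and the AM5 tissue held the shallowest library of each cultivar. Levels are given as CPM, counts scaled to the library's total at the 6943 loci that passed the filter on low counts, and are not compared between loci. All 4 members passed that filter. LOC_Os03g22270 had 9483 counts in all, LOC_Os11g44810 had 4835 and LOC_Os08g35190 had 1230, and each was counted in every library. LOC_Os09g26620 had 82 counts in all and was counted in 19 of 35 libraries. It passed the filter only through the 3 libraries where it was highest, NIL-MP3 AM4 replicate 14, NIL-MP3 AM5 replicate 13 and Takanari AM5 replicate 7. A difference among its libraries was thus a condition of its being tested, and those 3 libraries are of AM4 and AM5. Differences were tested with edgeR's quasi-likelihood test over all 6943 loci, and a difference is called where the Benjamini-Hochberg adjusted p lay under 0.05. The labels do not say that libraries of a group came from separate plants, so the p-values measure the spread between these libraries, which may be technical. The identifiers could not be paired with symbols, so the planned lists of bud-outgrowth genes and of meristem, leaf-primordium and leaf markers gave no values, and the tissue labels were not checked against markers.

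Across the AM series, 1 of the 4 loci rose with the label number in the pooled test. LOC_Os09g26620, the rarest of them, rose by 0.86 ± 0.22 (SE, log2 per label number, adjusted p = 0.0024). It was tested only because of high AM4 and AM5 libraries, so this rise is not independent of the filter. With no filter on low counts and all libraries its slope was 0.84 (adjusted p = 3.67e-05). LOC_Os11g44810 had a slope of 0.17 ± 0.071 (SE, adjusted p = 0.11). The slope of LOC_Os03g22270 was 0.064 ± 0.052 (SE, adjusted p = 0.433), and that of LOC_Os08g35190 was 0.058 ± 0.061 (SE, adjusted p = 0.562). Of all 6943 loci tested, 19.2% had a called slope and 9.36% had a called rise, and 1 member of 4 is not read here as a property of the family. The median slope of the members was 0.11 and that of all loci tested was 2.88e-05. LOC_Os11g44810 rose with the label number in Takanari, and its highest mean over both cultivars was in AM3, as was that of LOC_Os03g22270.

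**Figure D1:**
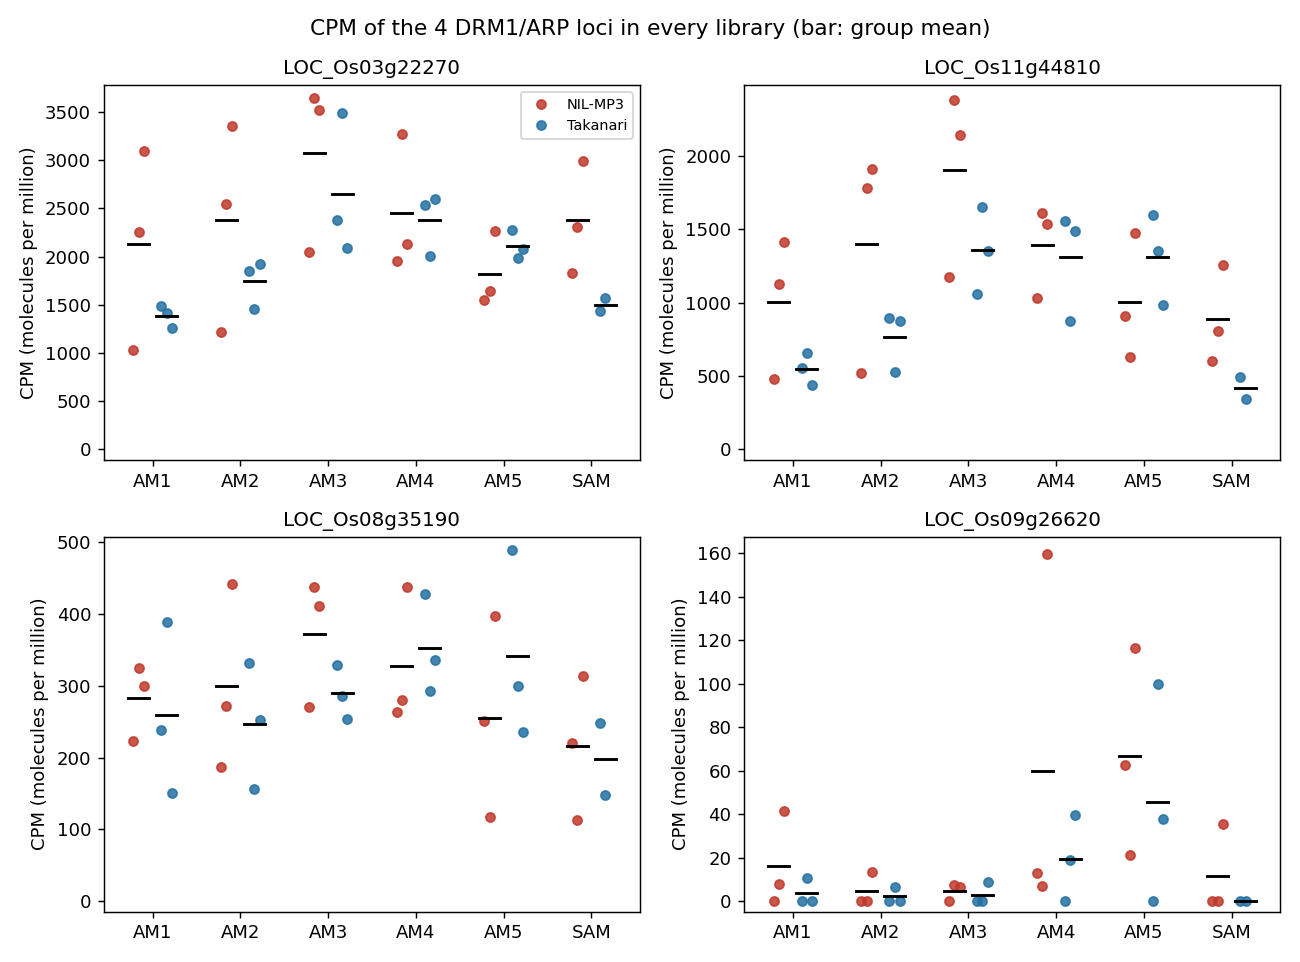
CPM of the 4 loci in each of the 35 libraries, by tissue label, with NIL-MP3 in red and Takanari in blue. Each point is 1 library and each bar is the mean of a group. LOC_Os03g22270 and LOC_Os11g44810 had their highest group mean in AM3 of NIL-MP3, and LOC_Os09g26620 lay at or near 0 in most libraries outside AM4 and AM5.

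LOC_Os09g26620 had few molecules in AM1, AM2 and AM3. In AM1 its counts were 0, 1 and 4 molecules in the NIL-MP3 libraries and 0, 1 and 0 in the Takanari libraries, a sum of 6. In AM2 they were 0, 0 and 2 in NIL-MP3 and 0, 1 and 0 in Takanari. In AM3 they were 0, 1 and 1 in NIL-MP3 and 0, 0 and 1 in Takanari. The sums in AM2 and in AM3 were thus 3 molecules each over 6 libraries.

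In AM4 the counts of LOC_Os09g26620 were 2, 1 and 19 in NIL-MP3 and 0, 3 and 4 in Takanari, a sum of 29. In AM5 they were 4, 2 and 15 in NIL-MP3 and 0, 9 and 4 in Takanari, a sum of 34. These 2 tissues held most of its molecules in both cultivars, and 1 Takanari library in each had none. In SAM 1 NIL-MP3 library had 7 molecules, while the other two NIL-MP3 libraries and both Takanari libraries had 0. A count of 0 allows up to 3 molecules, which over the 2 Takanari SAM libraries is 12.4 CPM.

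As pooled CPM, LOC_Os09g26620 stood at 9.03 in AM1 (95% exact Poisson interval 3.31 to 19.7), at 3.69 in AM2 (0.76 to 10.8) and at 4.14 in AM3 (0.853 to 12.1). It stood at 35.8 in AM4 (24 to 51.4), at 62.8 in AM5 (43.5 to 87.8) and at 9.82 in SAM (3.95 to 20.2). These intervals cover counting error only. Those of AM4 and AM5 overlap each other and lie above those of the other tissues. The pooled level in AM5 was 6.96 times that in AM1, from 34 and 6 molecules, and 6.4 times that in SAM, from 34 and 7 molecules. In Takanari alone, AM5 had 13 molecules and SAM had 0. With the floor of 3 counts taken over the SAM group, the ratio of pooled CPM was 4.1. This ratio is not a minimum, because it leaves out the counting error of the 13 molecules. The Takanari intervals were 27.1 to 87.1 CPM in AM5 and 0 to 15.3 CPM in SAM.

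Of the tests between tissues for LOC_Os09g26620, those of AM5 against AM1 and against SAM were called. Both calls share the limit that the locus passed the filter only through AM4 and AM5 libraries. AM5 minus AM1 was 2.86 ± 0.95 (SE, log2, adjusted p = 0.034), in a comparison where 13.3% of all loci were called and 6.52% were higher in AM5. The ranges of the 6 AM5 and the 6 AM1 libraries overlap. Takanari AM5 replicate 1 had no molecule. NIL-MP3 AM5 replicate 7 (21.4 CPM) and Takanari AM5 replicate 13 (37.8 CPM) also lay below NIL-MP3 AM1 replicate 17 (41.4 CPM). AM5 also exceeded SAM (adjusted p = 0.0246), where 10.2% of all loci were called and 5.53% were higher in AM5. No single step between neighbouring label numbers was called, and that from AM3 to AM4 was 2.75 ± 1.06 (SE, log2, adjusted p = 0.632). Of all loci, 0.259% were called from AM1 to AM2, 0.0432% from AM2 to AM3, 0% from AM3 to AM4 and 0.36% from AM4 to AM5.

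Individual libraries weigh on these calls. The rise of LOC_Os09g26620 over AM1 to AM5 stayed called without each of the 35 libraries in turn, with slopes from 0.74 to 1.06. Each of these fits used the same filter and shares its limit. The AM5 call against AM1 was lost without any of 6 libraries, namely NIL-MP3 AM1 replicates 5 and 11, NIL-MP3 AM5 replicate 13, Takanari AM1 replicates 5 and 17 and Takanari AM5 replicate 7 (adjusted p from 0.0751 to 0.188). The AM5 call against SAM was lost without NIL-MP3 AM5 replicate 13 (adjusted p = 0.0948), Takanari AM5 replicate 7 (0.126), or either of the Takanari SAM libraries, replicate 6 (0.0819) and replicate 12 (0.139). In DESeq2 neither difference was called (adjusted p of 0.162 for AM1 and 0.104 for SAM).

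Library numbers run from 1 to 18 within a cultivar, and each run of 6 (1 to 6, 7 to 12, 13 to 18) holds 1 library of every tissue. Within every run the order was the same, from AM5 with the lowest number down to AM1, and then SAM with the highest. Tissue and position in a run therefore cannot be told apart, and comparing tissues within runs does not separate them. The runs differed in LOC_Os09g26620. NIL-MP3 numbers 13 to 18 held 48 of the 59 molecules counted in that cultivar, and Takanari numbers 1 to 6 held 0 of 23. Without NIL-MP3 numbers 13 to 18 the locus no longer passed the filter. With no filter and without those libraries, its slope was 0.94 (adjusted p = 0.00375 over 23562 loci). Within single runs its slope, on a scale of log2 CPM with a prior count of 2, was 0.54, 0.18 and 0.50 in NIL-MP3 and 0, 0.48 and 0.52 in Takanari. The mean over runs was 0.37 ± 0.22 (SD, n = 6), with 5 of 6 runs rising (exact sign-flip permutation test, two-sided, p = 0.0625). A slope of 0 is unchanged by a sign flip, so this p is the smallest the test could give for these slopes.

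**Figure D2:**
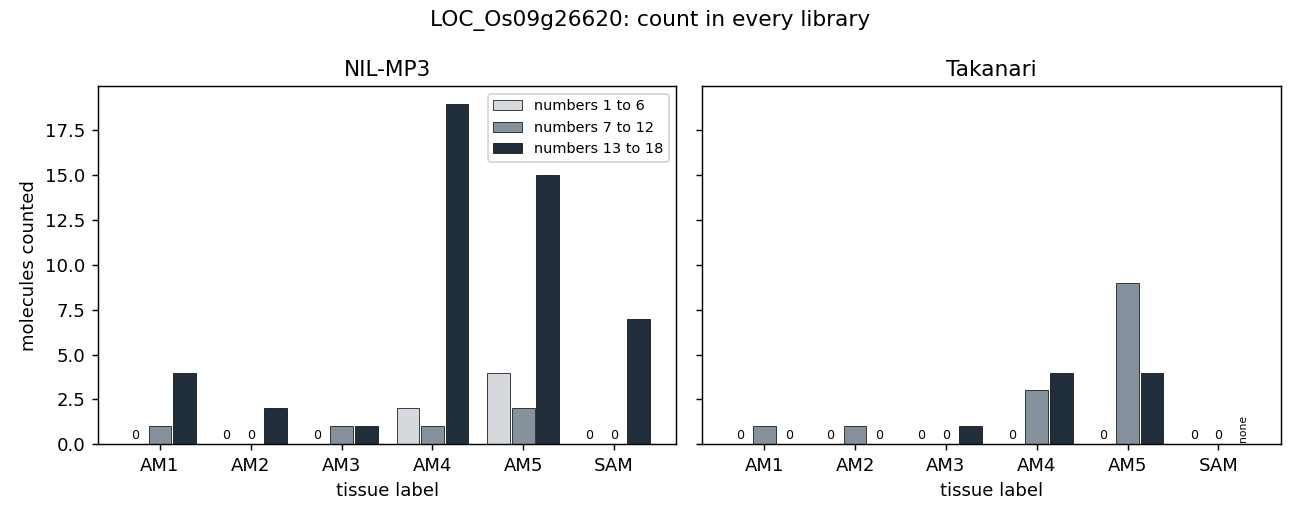
Molecules of LOC_Os09g26620 counted in each library, by tissue label and cultivar. Each bar is 1 library, shaded by run of library numbers, a library with no molecule is marked 0, and the Takanari SAM library without values is marked none. The highest counts, 19 and 15, are those of NIL-MP3 AM4 and AM5 in numbers 13 to 18.

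LOC_Os11g44810 had a higher mean in every AM tissue than in SAM. Its CPM in AM1 was 478, 1130 and 1417 in NIL-MP3 and 554, 658 and 438 in Takanari. In AM2 it was 520, 1780 and 1910 in NIL-MP3 and 894, 529 and 872 in Takanari. In AM3 it was 1177, 2383 and 2145 in NIL-MP3 and 1063, 1654 and 1356 in Takanari. Each library of AM3 was above the AM1 library of the same run. The share of all loci with the same order was not computed, either here or for the counts of runs given below.

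In AM4 the CPM of LOC_Os11g44810 was 1030, 1612 and 1538 in NIL-MP3 and 1558, 877 and 1491 in Takanari. In AM5 it was 910, 630 and 1477 in NIL-MP3 and 1601, 1353 and 983 in Takanari. In SAM it was 601, 808 and 1258 in NIL-MP3 and 495 and 343 in Takanari. In Takanari every library of AM3, AM4 and AM5 was above every library of AM1 and SAM, while in NIL-MP3 the same ranges overlap. Ranges of groups this small can part by chance, and the share of all loci whose ranges part in this way was not computed.

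Over both cultivars the mean CPM of LOC_Os11g44810 was highest in AM3, at 1630 ± 536 (SD, n = 6). AM4 followed at 1351 ± 314 (SD, n = 6), AM5 at 1159 ± 376 (SD, n = 6) and AM2 at 1084 ± 612 (SD, n = 6). AM1 stood at 779 ± 401 (SD, n = 6) and SAM at 701 ± 355 (SD, n = 5). Each neighbouring pair in that order lay within 1 SD of each other. None of the 4 steps between label numbers was called for this locus, and the steepest, AM3 minus AM2, was 0.63 ± 0.30 (SE, log2, adjusted p = 0.51).

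Within Takanari, LOC_Os11g44810 rose with the label number by 0.33 ± 0.10 (SE, log2 per label number, adjusted p = 0.0389), in a comparison where 11.4% of all loci were called and 5.52% rose. Its Takanari means from AM1 to AM5 were 550, 765, 1358, 1309 and 1312 CPM, so the mean did not climb further after AM3. Within NIL-MP3 its slope was 0.0027 ± 0.098 (SE, adjusted p = 0.994), where 5.07% of all loci were called. The slope in NIL-MP3 minus that in Takanari was -0.32 ± 0.14 (SE, adjusted p = 0.991), so a difference between the cultivars was not called. In that test 0% of all loci were called with edgeR, DESeq2 or limma voom, and 296 loci had an unadjusted p under 0.05 in edgeR. The Takanari call was lost without any 1 of 10 Takanari libraries, with adjusted p from 0.0503 to 0.129. These were AM1 replicates 5, 11 and 17, AM2 replicate 10, AM4 replicates 2 and 14, AM5 replicates 1 and 7, and SAM replicates 6 and 12.

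By run, the slope of LOC_Os11g44810 was 0.38, 0.28 and 0.30 in Takanari and 0.28, -0.18 and -0.019 in NIL-MP3. All 3 Takanari runs rose and 1 of 3 NIL-MP3 runs did. The mean over runs was 0.17 ± 0.22 (SD, n = 6, exact sign-flip permutation test, two-sided, p = 0.125). NIL-MP3 runs against Takanari runs gave an exact permutation p of 0.2, two-sided, where 3 against 3 cannot go below 0.1. In edgeR with a replicate block of 6 levels, 1 for each run, the slope over both cultivars was 0.17 and was called (adjusted p = 0.0183). In that fit 1596 of 6943 loci had a called slope.

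Against SAM, LOC_Os11g44810 was higher in the mean of all AM tissues by 0.90 ± 0.29 (SE, log2, adjusted p = 0.146), which was not called. Only 1.35% of all loci were called in that comparison. The same difference was 1.40 ± 0.34 for AM3 (SE, adjusted p = 0.074), 1.15 ± 0.34 for AM4 (SE, adjusted p = 0.0609) and 0.92 ± 0.34 for AM5 (SE, adjusted p = 0.0947). Of all loci, 0.144% were called against SAM for AM1, 0.072% for AM2, 0.317% for AM3 and 3.51% for AM4. AM4 exceeded SAM in 5 of 5 runs that had both, and AM5 did in 4 of 5. With the block for each run, the differences of all AM tissues (0.91, adjusted p = 0.0145), AM3 (1.42, 0.00199) and AM4 (1.18, 0.00386) from SAM were called. In that fit 282, 194 and 603 of 6943 loci were called in these 3 comparisons. In DESeq2 the differences of AM3 (adjusted p = 0.00957), of AM4 (0.0165) and of all AM tissues (0.0379) from SAM passed the threshold. There 37, 234 and 75 of 6943 loci were called. The 3 differences also passed without NIL-MP3 numbers 1 to 6, where 58, 309 and 130 of 6986 loci were called. That run was left out after the data were seen, and had the lowest mean AM level of this locus in NIL-MP3.

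LOC_Os03g22270, the member with the most counts, had its highest means in AM3 and AM4. None of its differences between tissues was called in the main fit, which has no block for runs. With the block for each run, 194 of 6943 loci were called for AM3 minus SAM. LOC_Os03g22270 was among them (0.59, adjusted p = 0.0145). Its CPM in AM1 was 1030, 2259 and 3092 in NIL-MP3 and 1487, 1414 and 1260 in Takanari. In AM2 it was 1220, 2548 and 3357 in NIL-MP3 and 1848, 1458 and 1925 in Takanari. In AM3 it was 2050, 3650 and 3521 in NIL-MP3 and 2380, 3493 and 2088 in Takanari. The AM3 library was above the AM1 library in 6 of 6 runs.

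In AM4 the CPM of LOC_Os03g22270 was 1954, 3274 and 2127 in NIL-MP3 and 2534, 2007 and 2597 in Takanari. In AM5 it was 1553, 1645 and 2270 in NIL-MP3 and 2276, 1985 and 2078 in Takanari. In SAM it was 1827, 2306 and 2992 in NIL-MP3 and 1432 and 1568 in Takanari. As for LOC_Os11g44810, every Takanari library of AM3, AM4 and AM5 was above every one of AM1 and SAM, and the NIL-MP3 ranges overlap. Here too the share of all loci that part in this way was not computed.

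In order of mean CPM, LOC_Os03g22270 stood at 2864 ± 768 in AM3, 2415 ± 499 in AM4 and 2059 ± 781 in AM2 (SD, n = 6 each). SAM followed at 2025 ± 635 (SD, n = 5), then AM5 at 1968 ± 308 and AM1 at 1757 ± 775 (SD, n = 6 each). Each neighbouring pair lay within 1 SD of each other. The slope was 0.17 ± 0.074 within Takanari (SE, log2 per label number, adjusted p = 0.159) and -0.038 ± 0.073 within NIL-MP3 (SE, adjusted p = 0.851). The difference between these slopes was -0.20 ± 0.10 (SE, adjusted p = 0.991). Slopes by run were 0.17, 0.14 and 0.19 in Takanari and 0.18, -0.055 and -0.15 in NIL-MP3. The difference of all AM tissues from SAM was 0.19 ± 0.20 (SE, log2, adjusted p = 0.771), with a 95% interval from -0.21 to 0.60.

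**Figure D3:**
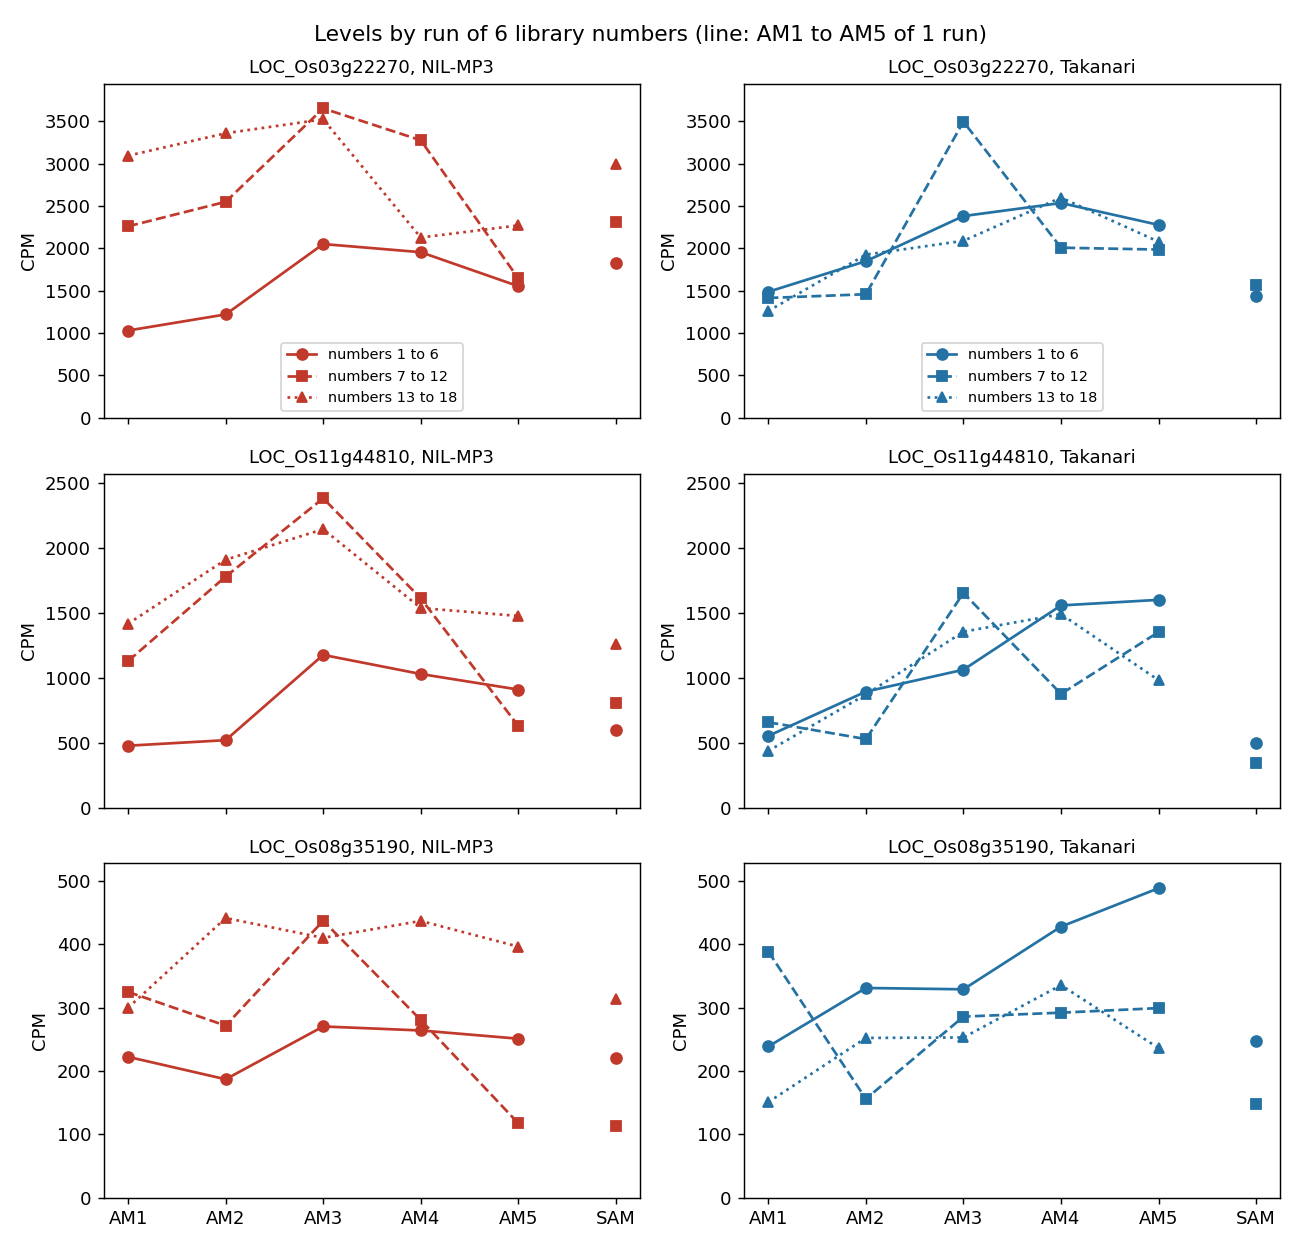
CPM of LOC_Os03g22270, LOC_Os11g44810 and LOC_Os08g35190 by tissue label, NIL-MP3 on the left and Takanari on the right. Each line joins the AM1 to AM5 libraries of 1 run of library numbers, and SAM is drawn apart. NIL-MP3 numbers 1 to 6 lie lowest in 6 of 6 tissues for LOC_Os03g22270 and in 5 of 6 for LOC_Os11g44810.

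The higher levels in the middle of the series were tested after they had been seen. AM3 and AM4 minus AM1 and AM5 was 0.67 ± 0.22 for LOC_Os11g44810 (SE, log2, adjusted p = 0.145) and 0.52 ± 0.16 for LOC_Os03g22270 (SE, log2, adjusted p = 0.121). Neither was called, and 1.51% of all loci were. Both passed the threshold in DESeq2 (adjusted p of 0.0454 and 0.0309), where 109 of 6943 loci were called. They also passed without NIL-MP3 numbers 1 to 6 (0.00894 and 0.0077), where 45 of 6986 loci were called. For LOC_Os03g22270 the contrast also passed without NIL-MP3 AM2 replicate 4 (adjusted p = 0.0442). With the block for each run both loci passed (adjusted p of 0.013 and 0.000418), where 286 of 6943 loci were called. These values are not separate support, because the contrast was taken from the same levels. The run left out is also the NIL-MP3 run with the lowest mean AM level of both loci. For LOC_Os08g35190 the difference was 0.25 ± 0.19 (SE, log2, adjusted p = 0.606).

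For LOC_Os08g35190 no difference between tissues was called in the main fit. With the block for each run, 282, 194 and 603 of 6943 loci were called for all AM tissues, AM3 and AM4 against SAM. LOC_Os08g35190 was among them in each (adjusted p of 0.028, 0.0289 and 0.0075). Its CPM in AM1 was 222, 325 and 299.9 in NIL-MP3 and 239, 389 and 151 in Takanari. In AM2 it was 187, 272 and 442 in NIL-MP3 and 331, 156 and 252 in Takanari. In AM3 it was 270.4, 437 and 410.4 in NIL-MP3 and 329, 286 and 253 in Takanari. The ranges of these 3 tissues overlap in both cultivars.

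In AM4 the CPM of LOC_Os08g35190 was 264, 281 and 437 in NIL-MP3 and 428, 292 and 336 in Takanari. In AM5 it was 251, 118 and 397 in NIL-MP3 and 489, 299 and 236 in Takanari. In SAM it was 221, 113 and 313 in NIL-MP3 and 248 and 148 in Takanari. SAM had the lowest mean, 208 ± 79.9 (SD, n = 5), and AM4 the highest, 339.6 ± 75.9 (SD, n = 6), with AM3, AM5, AM2 and AM1 between them in that order.

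All AM tissues together differed from SAM in LOC_Os08g35190 by 0.54 ± 0.24 (SE, log2, adjusted p = 0.31), which was not called. Both AM4 and AM5 exceeded SAM in 5 of 5 runs. The difference of AM4 from SAM was 0.72 ± 0.28 (SE, log2, adjusted p = 0.16) and that of AM5 was 0.52 ± 0.29 (SE, log2, adjusted p = 0.311). The slope of LOC_Os08g35190 was 0.13 ± 0.086 within Takanari (SE, log2 per label number, adjusted p = 0.39) and -0.012 ± 0.085 within NIL-MP3 (SE, adjusted p = 0.966). By run it ran from -0.27 in NIL-MP3 numbers 7 to 12 to 0.23 in Takanari numbers 1 to 6, and 5 of 6 runs rose.

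**Figure D4:**
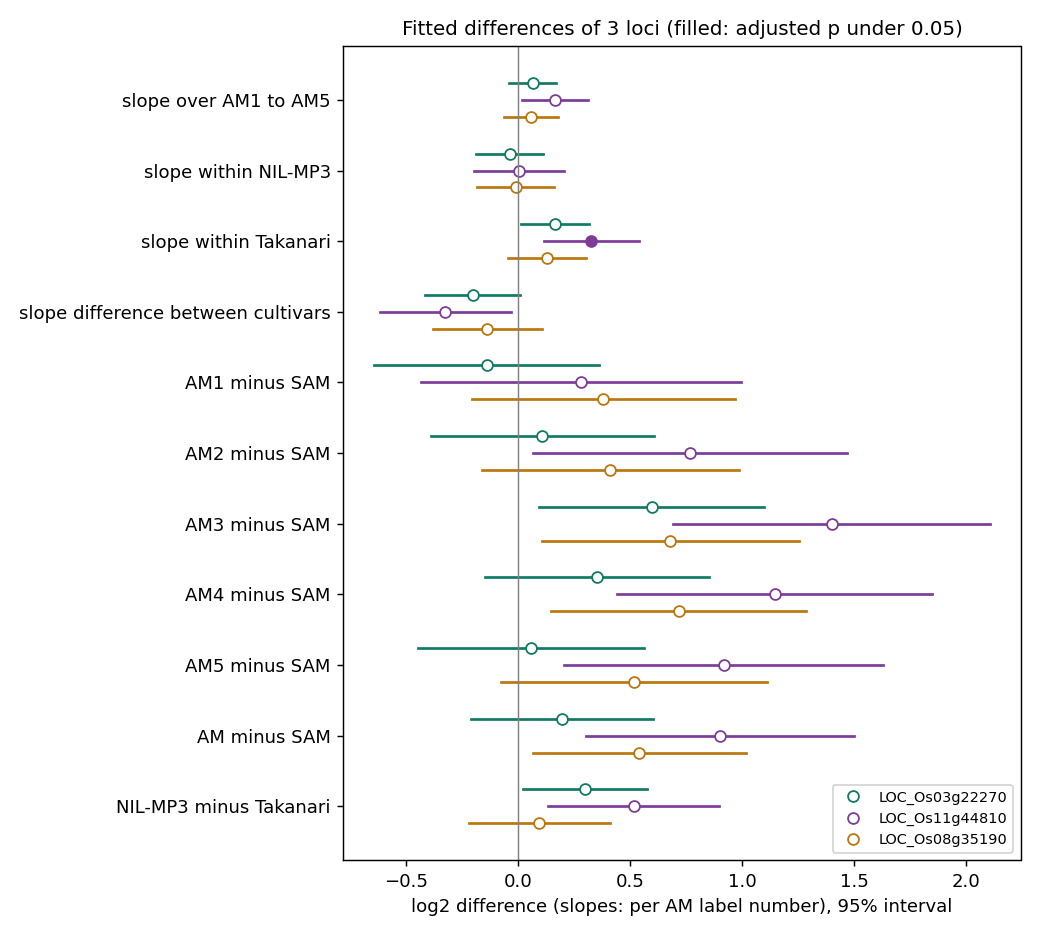
Fitted log2 differences of LOC_Os03g22270, LOC_Os11g44810 and LOC_Os08g35190 with 95% intervals, for slopes per AM label number, each AM tissue against SAM, and NIL-MP3 against Takanari. Filled points have an adjusted p under 0.05. The slope of LOC_Os11g44810 within Takanari, 0.33, is the 1 filled point.

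Between the cultivars, no member had a called difference, and 1.3% of all loci did. NIL-MP3 minus Takanari, over the 6 tissues, was 0.52 ± 0.18 for LOC_Os11g44810 (SE, log2, adjusted p = 0.193) and 0.30 ± 0.14 for LOC_Os03g22270 (SE, log2, adjusted p = 0.323). For LOC_Os08g35190 it was 0.094 ± 0.16 (SE, log2, adjusted p = 0.847), with a 95% interval from -0.22 to 0.41. The NIL-MP3 mean was above the Takanari mean in 5 of 6 tissues for LOC_Os11g44810 and for LOC_Os03g22270. The exception was AM5 for both, where the differences were -0.36 ± 0.44 and -0.20 ± 0.33 (SE, log2). For LOC_Os09g26620 the NIL-MP3 mean was above in 6 of 6 tissues, and the sums were 59 molecules in 18 NIL-MP3 libraries and 23 in 17 Takanari libraries (adjusted p = 0.339). By run these sums were 6, 5 and 48 in NIL-MP3 and 0, 14 and 9 in Takanari, so NIL-MP3 numbers 13 to 18 carry the difference. In AM2 and in AM3 the means rest on 2 molecules in NIL-MP3 and 1 in Takanari. The share of all loci with such counts of tissues was not computed. Within each single tissue 0% of all loci were called between the cultivars in edgeR, and from 250 to 404 loci per tissue had an unadjusted p under 0.05.

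The runs of library numbers bear on the comparison of cultivars, because no run spans both of them. The mean AM level of LOC_Os11g44810 was 823, 1507 and 1697 CPM in the 3 NIL-MP3 runs, and 1134, 1014 and 1028 CPM in the 3 Takanari runs. That of LOC_Os03g22270 was 1561, 2675 and 2873 CPM in NIL-MP3, and 2105, 2071 and 1989 CPM in Takanari. For both loci the mean of NIL-MP3 numbers 1 to 6 lay below all 3 Takanari means and the means of the other two NIL-MP3 runs lay above them, while the ranges of single libraries overlap. With the run as a random effect in limma, the cultivar difference was 0.48 for LOC_Os11g44810 (adjusted p = 0.678) and 0.26 for LOC_Os03g22270 (adjusted p = 0.806). Without NIL-MP3 numbers 1 to 6, 422 of 6986 loci were called between the cultivars, against 90 of 6943 with all libraries. That fit gave 0.75 (adjusted p = 6.14e-05) and 0.50 (adjusted p = 7.38e-05) for the same 2 loci. These 2 values support no difference between the cultivars, because the run left out is the NIL-MP3 run with the lowest levels, and without any other run the difference was not called. What the runs stand for is not given in the labels, and their part in the cultivar difference was not tested.

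The members also varied together to unequal degrees. Over the 12 group means of log2 CPM, LOC_Os11g44810 and LOC_Os03g22270 had a Pearson r of 0.906, LOC_Os11g44810 and LOC_Os08g35190 had 0.846, and LOC_Os08g35190 and LOC_Os03g22270 had 0.671. LOC_Os09g26620 had r from 0.114 to 0.346 with the other three. Within groups, over the 35 libraries, the r of LOC_Os11g44810 and LOC_Os03g22270 was 0.881, so they also varied together among libraries of the same label. These values are a description, since the loci share the same libraries, depths and runs.

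By the rule for likeness, the loci nearest in pattern to LOC_Os03g22270 over the 12 group means were LOC_Os12g01530 (r = 0.938, and 0.732 over the 35 libraries) and LOC_Os06g04020 (r = 0.931, and 0.729 over the 35 libraries). The loci most opposed were LOC_Os01g52390 (r = -0.909, and -0.643 over the 35 libraries) and LOC_Os07g38240 (r = -0.904, and -0.429 over the 35 libraries). LOC_Os07g38240 was rare, with sums from 11 molecules in AM3 to 42 in AM1. These loci were picked as the extremes of all loci tested over 12 group means, so an r far from 0 follows partly from the choice. LOC_Os12g01530 rose over AM1 to AM5 by 0.32 ± 0.049 (SE, log2 per label number, adjusted p = 9.31e-07). The slope of LOC_Os03g22270 itself was not called. No name or role is given to any of these loci in the sources used here.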

How the data were processed

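The authors deposited a table of raw counts, with 1 whole number of molecules for each of 55801 loci in 35 libraries. The submitters' processing notes name Bowtie2 and Subread 2.1, with neither role nor order. Genome build and annotation are not stated, and neither is how reads that fit more than 1 locus were counted, so counts of close family members are uncertain to that extent. The labels list 36 libraries, and Takanari SAM library 18 was omitted by the submitters.

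The members and lists were chosen with earlier results of these data known. All 4 members are named whatever their values. Of other loci, those named are the 2 highest and 2 lowest in Pearson r over the 12 group means with the member of highest total count. Lists by symbol could not be used because no identifier matched. No sequence is printed.

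Of 24225 loci with a count, 6943 passed edgeR's filterByExpr (minimum count 10), and held 84.5% to 87% of each library's counts. CPM used library sizes over these loci and TMM factors (0.891 to 1.04). The test was edgeR 4.0.16 in R 4.3.3, a robust quasi-likelihood F test with 12 group means and Benjamini-Hochberg adjustment over all loci tested. The standard error was the log2 difference divided by the square root of F, and the common biological coefficient of variation was 0.248. Alternatives used DESeq2 1.42.0, limma 3.58.1, other filters, thinned counts, replicate blocks and left-out libraries. The contrast of AM3 and AM4 with AM1 and AM5 and the fits without a run were added after the data were seen. The fit for the slope was tested on simulated data, with changes put only into loci above the median level and no differences between runs. That test does not cover loci as rare as LOC_Os09g26620. Molecules of a tagged library are counted once, and a count of 0 allows up to 3.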

Additional observations from a re-analysis of the deposited data

Results flagged for a closer look

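In 3 of the 28 groups checked for an outlying library, 1 library stood apart from the others, and chance sets about 1 in 20 groups apart in this way where values are normally spread, a rate that was not computed here and need not hold for counts this low. All 3 concern LOC_Os09g26620, and the libraries all belong to NIL-MP3 numbers 13 to 18. Over the 6 AM1 libraries, NIL-MP3 AM1 replicate 17 had 41.4 CPM, from 4 molecules, while the others had 0 to 10.8. Over the 6 AM4 libraries, NIL-MP3 AM4 replicate 14 had 159.7 CPM, from 19 molecules, while the others had 0 to 39.5. Over the 5 SAM libraries, NIL-MP3 SAM replicate 18 had 35.4 CPM, from 7 molecules, and the other 4 had 0. The cause was not tested.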

How the results depend on the processing

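The rise of LOC_Os09g26620 over AM1 to AM5 stayed called in every fit that could be made, at 0.66 to 1.03 (log2 per label number, adjusted p at most 0.0381), and at 0.74 to 1.06 without each library in turn. It could not be fitted under 4 settings (a stricter filter, thinned counts, without AM5, and without NIL-MP3 numbers 13 to 18), because it then failed the filter. Apart from the fits with no filter, a fit could be made only where its highest libraries carried it past the filter. That the call stayed is thus partly set by the filter. Its AM5 minus AM1 difference lost the call with DESeq2 (2.92), without NIL-MP3 numbers 1 to 6 (2.59) or 7 to 12 (2.90), and without Takanari numbers 1 to 6 (2.87), 7 to 12 (3.31) or 13 to 18 (2.62), and lay between 2.33 and 3.88 without 1 library. Its AM5 call against SAM was lost with DESeq2 (adjusted p = 0.104) and without Takanari numbers 1 to 6 (0.0715) or 7 to 12 (0.347). Its slope within NIL-MP3 became called with no filter (0.74), with a replicate block of 6 levels (0.75) or 3 levels (0.75) and with the run as a random effect (0.67), and ranged from 0.51 to 1.09 without 1 library. Within Takanari it became called with no filter (0.95), with those blocks (0.95 and 1.01), without both AM5 libraries numbered 1 (1.06) and without NIL-MP3 numbers 1 to 6 (0.97), with a range of 0.76 to 1.38 without 1 library. The slope difference between cultivars turned to 0.0496 with limma voom and 0.019 with the random effect, and lay between -0.63 and 0.12 without 1 library. AM3 minus SAM turned to -0.091 without NIL-MP3 numbers 7 to 12 and -0.65 without Takanari numbers 13 to 18 (-0.66 to 2.25 without 1 library), and AM3 and AM4 minus AM1 and AM5 turned to 0.097 without Takanari numbers 7 to 12. None of these reversed values was called.

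For LOC_Os11g44810 the pooled slope became called with the stricter filter (0.18, adjusted p = 0.0445), the replicate block of 6 levels (0.17, adjusted p = 0.0183) and without AM5 (0.33, adjusted p = 0.0423). Its difference of all AM tissues from SAM became called with DESeq2 (0.90), the block of 6 levels (0.91) and without NIL-MP3 numbers 1 to 6 (0.91), and its cultivar difference without those libraries (0.75). Its Takanari slope lost the call with no filter (0.31), with limma voom (0.32), without both AM5 libraries numbered 1 (0.30), without AM5 (0.46), without NIL-MP3 numbers 7 to 12 (0.33) and without Takanari numbers 1 to 6 (0.30), 7 to 12 (0.35) or 13 to 18 (0.33), and lay between 0.29 and 0.36 without 1 library. Its slope within NIL-MP3, which is close to 0, changed sign with no filter (-0.015), thinned counts (-0.022), without NIL-MP3 numbers 1 to 6 (-0.078) and without Takanari numbers 1 to 6 (-0.0087), 7 to 12 (-0.0044) or 13 to 18 (-0.00086), with a range of -0.0795 to 0.066 without 1 library.

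For LOC_Os08g35190 the difference of all AM tissues from SAM became called with the block of 6 levels (0.61, adjusted p = 0.028). AM5 minus AM1 turned to -0.14 without NIL-MP3 numbers 13 to 18 and -0.055 without Takanari numbers 1 to 6 (-0.15 to 0.35 without 1 library). Its cultivar difference turned to -0.20 without NIL-MP3 numbers 13 to 18 and -0.017 without Takanari numbers 13 to 18 (-0.0029 to 0.16 without 1 library). Its slope within NIL-MP3 turned to 0.0053 with the stricter filter, 0.093 without AM5 and 0.083 without NIL-MP3 numbers 7 to 12 (-0.12 to 0.057 without 1 library). For LOC_Os03g22270 the cultivar difference became called without NIL-MP3 numbers 1 to 6 (0.50), and the Takanari slope with thinned counts (0.20), the block of 6 levels (0.17) and without NIL-MP3 numbers 1 to 6 (0.17). Its slope within NIL-MP3 turned to 0.0012 with limma voom, 0.00092 with the random effect, 0.101 without AM5 and 0.038 without NIL-MP3 numbers 13 to 18 (-0.11 to 0.035 without 1 library). AM5 minus SAM turned to -0.057 with no filter and -0.038 without Takanari numbers 1 to 6 (-0.035 to 0.16 without 1 library). Over the 35 libraries, the r of its 4 named loci moved to 0.732, 0.729, -0.643 and -0.429.

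Same-numbered libraries of the cultivars were not paired by the data (mean correlation of deviations 0.00934 over 17 pairs, 2 over 0.1), while libraries of the same run deviated together (mean 0.157 over 85 pairs, 57 over 0.1). The labels do not say that numbers mark a shared source. The replicate block of 6 levels raised the loci called for AM minus SAM from 94 to 282, for AM3 minus SAM from 22 to 194, for AM4 minus SAM from 244 to 603, for the NIL-MP3 slope from 352 to 575 and for AM3 and AM4 minus AM1 and AM5 from 105 to 286. In that fit AM3 minus SAM (1.42), AM4 minus SAM (1.18) and AM5 minus SAM (0.93) of LOC_Os11g44810 became called, as did AM3 minus SAM (0.76) and AM4 minus SAM (0.79) of LOC_Os08g35190 and AM3 minus SAM (0.59) of LOC_Os03g22270. So did AM3 and AM4 minus AM1 and AM5, for LOC_Os11g44810 (0.70, adjusted p = 0.013) and LOC_Os03g22270 (0.54, adjusted p = 0.000418). AM3 and AM4 minus SAM of LOC_Os11g44810 were also called with the block of 3 levels (adjusted p of 0.047 and 0.045) and with the random effect (0.0394 and 0.0391), and AM4 minus SAM of LOC_Os08g35190 with the random effect (0.0419). Thinning every library to 77362 counts cut the loci called for the slope from 1331 to 591 and for AM5 minus AM1 from 924 to 415, and over all other settings loci called between the cultivars ranged from 2 to 422, against 90. The causes were not tested.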
